A study of Mus musculus with 2 samples.

Results

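Interferon-response monocytes and macrophages were 178 of the 10801 cells kept from B16 melanomas, 95 from shSdc1 tumors and 83 from shRFP tumors. They were chosen by their own RNA counts. A cell belonged when Rsad2, Ifit1, Ifit2, Ifit3 and Cmpk2 together had at least 3 UMIs (unique molecular identifiers, 1 per captured RNA molecule), and Lyz2 with the complement genes C1qa, C1qb and C1qc at least 2. It also had no UMI of the T cell genes Cd3d, Cd3e and Cd3g or of the dendritic cell genes Xcr1, Clec9a and Cd209a. These genes therefore describe the cells and test nothing. The other monocytes and macrophages, 2368 in shSdc1 and 2695 in shRFP, met every condition except the interferon one and are the cells they are set against.

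The cells came from tumors of the mouse melanoma line B16, from which live CD45+ cells, the marker of immune cells, were sorted and sequenced in droplets from the 3' end of their RNA. In the shSdc1 group wild-type mice carried B16 cells whose hairpin targets Sdc1, which encodes the proteoglycan syndecan-1. In the shRFP group wild-type mice carried B16 cells with a hairpin against RFP, the control. All mice of both groups had first received irradiated B16-GM-CSF cells, a cellular vaccine that secretes the cytokine GM-CSF, under the skin of the left flank. The hairpin cells followed in the right flank 12 days later, and tumors were taken after another 16 days. The genotype given for the shSdc1 sample is a knock out, whereas title and protocol place a hairpin in the injected tumor cells and leave the host wild-type. Each group was 1 library of 6 pooled tumors. No difference between the groups could be tested, and mouse, tumor and library cannot be told apart from the hairpin. Genes are called higher or lower by size alone, and bracketed ranges are exact 95% intervals for counting error, not for the spread between tumors. Those on UMIs treat each UMI as independent and leave out the spread between cells as well.

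Type I interferons signal through the receptor IFNAR and the kinases JAK1 and TYK2 to a transcription factor complex that holds STAT2 and IRF9. This complex binds the interferon-stimulated response element (ISRE) in the promoters of antiviral genes such as Rsad2, Isg15 and the Ifit family. In tumors, myeloid cells are known both to make type I interferon after sensing nucleic acids and to respond to it, partly by making the chemokines CXCL9 and CXCL10, which attract T cells through CXCR3.

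The promoters of 3 of the genes that chose the cells, and of Isg15 and Cxcl10, the genes outside the rule most correlated with them, held the ISRE core. The 250 bases before each start are shown for this reason, from RefSeq on GRCm38.p6, 5' to 3' on the strand of the gene. Capitals mark GAAANNGAAA or its reverse complement. The windows are chr12:26456453-26456702 (minus strand) for Rsad2, chr19:34640639-34640888 (plus strand) for Ifit1, chr19:34583279-34583528 (plus strand) for Ifit3, chr4:156200819-156201068 (minus strand) for Isg15 and chr5:92348890-92349139 (minus strand) for Cxcl10.
Rsad2: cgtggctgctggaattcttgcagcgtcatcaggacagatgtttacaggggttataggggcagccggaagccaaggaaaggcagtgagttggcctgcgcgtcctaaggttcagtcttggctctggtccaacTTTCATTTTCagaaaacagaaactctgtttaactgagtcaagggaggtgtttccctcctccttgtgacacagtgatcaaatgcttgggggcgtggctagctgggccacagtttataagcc
Ifit1: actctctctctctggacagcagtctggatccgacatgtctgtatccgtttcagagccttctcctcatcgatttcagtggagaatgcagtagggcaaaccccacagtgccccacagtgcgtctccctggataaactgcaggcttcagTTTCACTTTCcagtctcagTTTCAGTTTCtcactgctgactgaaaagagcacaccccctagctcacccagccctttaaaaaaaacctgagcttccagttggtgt
Ifit3: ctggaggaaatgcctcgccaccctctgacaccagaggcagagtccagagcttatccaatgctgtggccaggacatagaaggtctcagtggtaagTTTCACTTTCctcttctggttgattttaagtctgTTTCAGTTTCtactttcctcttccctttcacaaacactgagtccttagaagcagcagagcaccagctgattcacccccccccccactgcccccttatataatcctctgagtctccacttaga
Isg15: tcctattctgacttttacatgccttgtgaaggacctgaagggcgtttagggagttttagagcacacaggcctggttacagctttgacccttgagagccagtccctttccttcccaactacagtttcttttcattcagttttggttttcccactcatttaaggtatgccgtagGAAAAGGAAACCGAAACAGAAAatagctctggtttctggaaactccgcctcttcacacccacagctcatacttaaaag
Cxcl10: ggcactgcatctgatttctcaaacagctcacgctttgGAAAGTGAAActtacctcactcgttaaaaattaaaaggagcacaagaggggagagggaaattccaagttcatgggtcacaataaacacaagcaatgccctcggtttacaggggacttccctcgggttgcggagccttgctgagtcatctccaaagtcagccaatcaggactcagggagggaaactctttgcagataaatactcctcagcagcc

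On mm10 the Ifit genes lie in a row on chromosome 19, with Ifit2 starting at 34550694 and Ifit1 ending at 34650009, Rsad2 (26442746 to 26456452) beside Cmpk2 on chromosome 12, Isg15 on chromosome 4 (156199424 to 156200818) and Cxcl10 (92346638 to 92348889) beside Cxcl9 on chromosome 5. Rsad2 held 1 match, which began 120 bases before the start, Ifit1 and Ifit3 held 2 each, Isg15 held 3 that overlap one another, and Cxcl10 held 1 that began 213 bases before the start. Over all RefSeq mouse promoter windows of this length, 936 of 27025 (3.46%) held the core on either strand. Among the antiviral genes listed below it was 10 of the 23 with a window, among the genes that stood out most in interferon-response cells 6 of 16, among the macrophage markers 1 of 14 and among the inflammatory genes 0 of 11. The windows of Ifit2, Cmpk2, Cxcl9 and Ifnb1 held no match. A second motif, TTCNNNGAA, the gamma-activated sequence of interferon gamma targets, was searched on both strands and was in 2197 windows (8.13%), in none of the 5 printed here and in 5 of the 23 antiviral ones. Among the 5 printed windows no ISRE core therefore overlaps it, and a match is a description of letters, not a bound site.

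Of 273 kept cells with at least 3 interferon UMIs, 138 were in shSdc1 and 135 in shRFP, and 43 and 52 of these fell to the other conditions. Too few Lyz2 and C1q UMIs accounted for 39 of the 43 and 48 of the 52, with Cd3 UMIs in 8 and 6, Xcr1 or Clec9a in 4 and 0, and Cd209a in 1 and 1, some in more than 1 of these ways. Interferon-response cells were 1.70% [1.38 to 2.08] of kept cells in shSdc1 and 1.59% [1.27 to 1.97] in shRFP, a ratio of 1.07 [0.790 to 1.46]. Within monocytes and macrophages they were 3.86% [3.13 to 4.69] in shSdc1 and 2.99% [2.39 to 3.69] in shRFP, a ratio of 1.29 [0.951 to 1.75]. Neither interval leaves out equal shares. The denominators themselves differed, with monocytes and macrophages at 44.2% of kept cells in shSdc1 and 53.2% in shRFP.

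**Figure D1:**
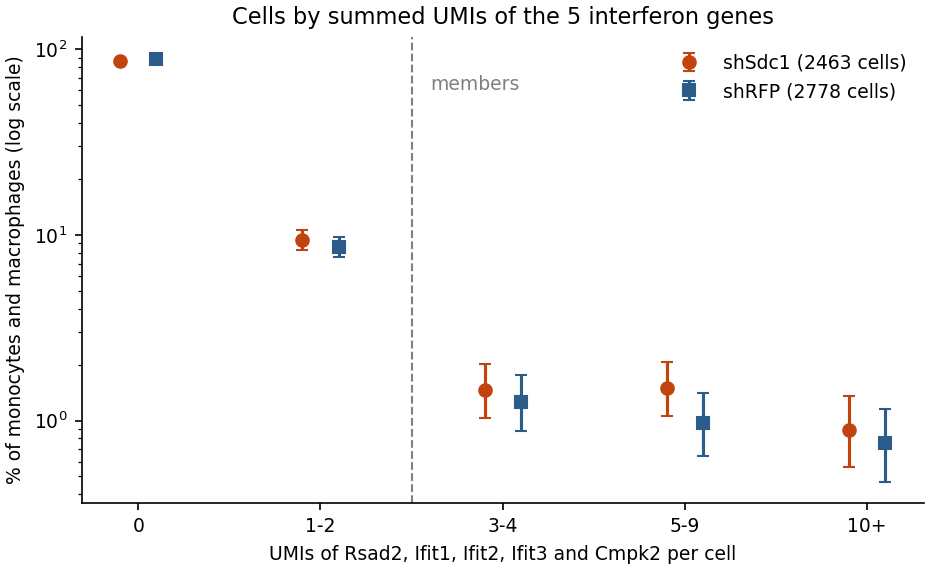
Share of monocytes and macrophages in each library (%, log axis) by the summed UMIs of Rsad2, Ifit1, Ifit2, Ifit3 and Cmpk2 per cell, with exact 95% Clopper-Pearson intervals. Cells right of the dashed line are the interferon-response cells; at 10 or more UMIs the shares were 0.893% in shSdc1 and 0.756% in shRFP.

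Most monocytes and macrophages had no UMI of these 5 genes, 2136 in shSdc1 and 2457 in shRFP. The threshold cut a continuous range: 51 cells in shSdc1 and 52 in shRFP had 2 UMIs and stayed outside, while 19 and 20 had exactly 3. Isg15 stood at 1196 CPM (UMIs per 1000000 UMIs of the cells) in shSdc1 and 1590 CPM in shRFP in cells with 3 UMIs, and at 790 CPM in shSdc1 and 1325 CPM in shRFP in cells with 2. At the upper end 22 cells in shSdc1 and 21 in shRFP had 10 or more, with a maximum of 35 and 23 UMIs. At least 3 of the 5 genes were seen in 57 of the 95 shSdc1 cells and 42 of the 83 shRFP cells, and all 5 in 10 and 5.

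Depth affects such a rule. The interferon-response cells held 92475 UMIs in shSdc1 and 85172 in shRFP, with a median of 893 and 934 per cell, against 715 and 776 in the other monocytes and macrophages. With every cell thinned to 500 UMIs, which left out 2207 shallower cells in shSdc1 and 1693 in shRFP, the share of monocytes and macrophages was 2.98% in shSdc1 and 2.25% in shRFP, a ratio of 1.33 [0.885 to 1.99]. T cells, with at least 2 Cd3 UMIs and none of Lyz2 or C1q, had a UMI of any of the 5 genes in 3.57% of cells in shSdc1 and 4.23% in shRFP, at median depths of 556.5 and 496 UMIs. The other monocytes and macrophages had one in 9.80% in shSdc1 and 8.83% in shRFP, or 6.48% and 5.37% at 500 UMIs, against 3.10% and 3.62% of T cells. The libraries shared 17 barcode sequences among kept cells, and none belonged to an interferon-response cell.

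The cells had markers of monocytes and macrophages. Genes of the macrophage list had UMIs in 93 of 95 cells in shSdc1 and 75 of 83 in shRFP, and genes of the monocyte list in 61 and 60. Cd3d, Cd3e, Cd3g, Xcr1, Clec9a and Cd209a are at 0 by the rule. Not used by the rule, the dendritic cell genes Flt3 and Zbtb46, the plasmacytoid marker Siglech, the NK gene Ncr1, the B cell gene Ms4a1, and every fibroblast and red cell gene listed were at 0 in both libraries. Flt3, Zbtb46 and Siglech were rare in the other monocytes and macrophages too, with 9, 4 and 6 UMIs in shSdc1 and 10, 3 and 3 in shRFP. Their absence from far fewer cells therefore does not set the interferon-response cells apart. Other genes of the cell type lists were seen. The plasmacytoid list stood at 1384 CPM in interferon-response cells and 704 CPM in the others of shSdc1, and at 1315 and 478 CPM in shRFP, through Bst2, itself interferon-induced, with 114 UMIs in shSdc1 and 96 in shRFP, and Tcf4 with 14 and 16. The list of type 1 conventional dendritic cells had 27 and 19 UMIs, that of type 2 had 10 and 7, and that of migratory dendritic cells 9 and 17. The T cell list had 3 UMIs in shSdc1 and 1 in shRFP, the NK list 3 and 3, the B cell list 2 and 2, and the neutrophil list 5 and 25. Of the 25, 13 were in 1 cell. The endothelial list had 2 UMIs in each library. The melanoma list had 13 in shSdc1 and 5 in shRFP, with 470 and 227 in the other monocytes and macrophages, up to 73 in 1 shSdc1 cell. Whether tumor RNA reached these cells was not tested. Sdc1 itself had 6 UMIs in the shSdc1 interferon-response cells and 0 in those of shRFP, with 85 and 103 in all kept cells. The hairpin was in the tumor cells, which the CD45+ sort selects against, so the Sdc1 values do not measure the knockdown.

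Among the genes that chose the cells, Rsad2, the antiviral radical enzyme viperin, stood at 3514 CPM in shSdc1 and 3428 CPM in shRFP, a ratio of 1.03 [0.873 to 1.20]. Ifit1, whose protein binds foreign RNA ends, had 2001 CPM in shSdc1 and 1456 CPM in shRFP (ratio 1.37 [1.09 to 1.74]), and Ifit2 had 703 and 481 CPM (1.46 [0.973 to 2.21]). Ifit3, which stabilises IFIT1, had 1352 CPM in shSdc1 and 881 CPM in shRFP, a ratio of 1.54 [1.14 to 2.07]. It was 1.43 to 1.48 after thinning, doublet removal, TMM scaling or equal weighting by C1q, so its call at 1.5-fold did not hold there. Cmpk2, a mitochondrial nucleotide kinase next to Rsad2 on chromosome 12, had 541 CPM in shSdc1 and 458 CPM in shRFP (1.18 [0.761 to 1.84]). Ifit3 and Ifit3b are near-identical copies, so reads may have been split between them.

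Interferon genes outside the rule were higher as well. Of 1446 genes with at least 20 UMIs in the interferon-response cells of both libraries together, 96 (6.64%) were at least 2-fold higher in interferon-response cells than in the other monocytes and macrophages of both libraries, and 1 (0.0692%), the chromatin factor gene Set, was lower; Set is named because it is the only one. Among the 479 genes outside the rule with at least 50 UMIs, 41 (8.56%) were higher in both. In single libraries 156 genes were at least 2-fold higher and 20 lower in shSdc1, and 150 and 43 in shRFP. The minimum of 20 UMIs is set in the interferon-response cells alone, so genes low there drop out and the balance of higher to lower is partly fixed by it. Over all 1446 genes the median log2 ratio was 0.06 in shSdc1 and 0.04 in shRFP. These comparisons describe the cells the rule picked and were not tested, and counts of measured genes below leave out list members under that minimum. Sums over a whole list have no minimum.

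Antiviral effectors summed over the whole list stood at 14858 CPM in interferon-response cells and 4884 CPM in the others of shSdc1, and at 13103 and 4902 CPM in shRFP. Of 28 genes with UMIs 22 were measured, 18 of them at least 2-fold higher in both libraries and a median log2 ratio of 2.01 in shSdc1 and 1.91 in shRFP. Isg15, the ubiquitin-like modifier, had 2238 CPM in interferon-response cells and 225 CPM in the others of shSdc1, and 1949 and 233 CPM in shRFP. Those are ratios of 9.96 and 8.38. Oasl1, an OAS-like protein that restrains Irf7 translation in mice, was 10.4-fold higher in shSdc1 and 8.54-fold higher in shRFP. Slfn5 was 7.52- and 4.15-fold higher, Slfn4 6.60- and 10.6-fold, and Rtp4 4.59- and 4.70-fold. After thinning Oasl1 was 15.8-fold higher in shSdc1 and 15.4-fold in shRFP, and with at least 500 genes per cell Slfn4 was 12.7-fold higher in shSdc1. The exceptions were Ifitm2 and Ifitm3, which block viral entry, the nucleotide hydrolase gene Samhd1, and Ifi27l2a. Ifitm3 was 2.56-fold higher in shSdc1 and 1.89-fold in shRFP, and the remaining 3 were between 0.817- and 1.89-fold.

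Nucleic acid sensors summed to 3417 CPM in interferon-response cells and 829 CPM in the others of shSdc1, and to 4426 and 842 CPM in shRFP. Of 14 with UMIs 9 were measured, and 8 of these were at least 2-fold higher in both libraries. Ifih1, which encodes the double-stranded RNA sensor MDA5, had 314 CPM in interferon-response cells and 24.9 CPM in the others of shSdc1, and 294 and 33.1 CPM in shRFP, ratios of 12.6 and 8.87. Ddx58, the gene of RIG-I, was 8.10- and 11.6-fold higher. Members of the Ifi200 family, PYHIN proteins of which several bind DNA, were higher as a block, from 3.12-fold for Ifi207 to 7.47-fold for Ifi209 in shSdc1 and from 2.87-fold for Ifi207 to 11.2-fold for Ifi205 in shRFP. Their sequences are close, and reads may be shared between them. Dhx58, the regulator LGP2, had 64.9 CPM in interferon-response cells and 43.4 CPM in the others of shSdc1, and 235 and 31.1 CPM in shRFP.

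The signalling genes were less uniform, with 5 of 10 at least 2-fold higher in both libraries. Irf7, the transcription factor that amplifies interferon production, had 735 CPM in interferon-response cells and 153 CPM in the others of shSdc1, and 517 and 100 CPM in shRFP (4.80- and 5.14-fold). Usp18, the protease that removes ISG15 and dampens IFNAR signalling, was 11.1- and 13.1-fold higher. Stat2, Parp14 and Tor3a completed the 5. Irf8 and Irf5, myeloid regulators, stayed between 1.21- and 1.44-fold. The receptor genes Ifnar1 and Ifnar2 were between 0.805- and 1.51-fold.

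**Figure D2:**
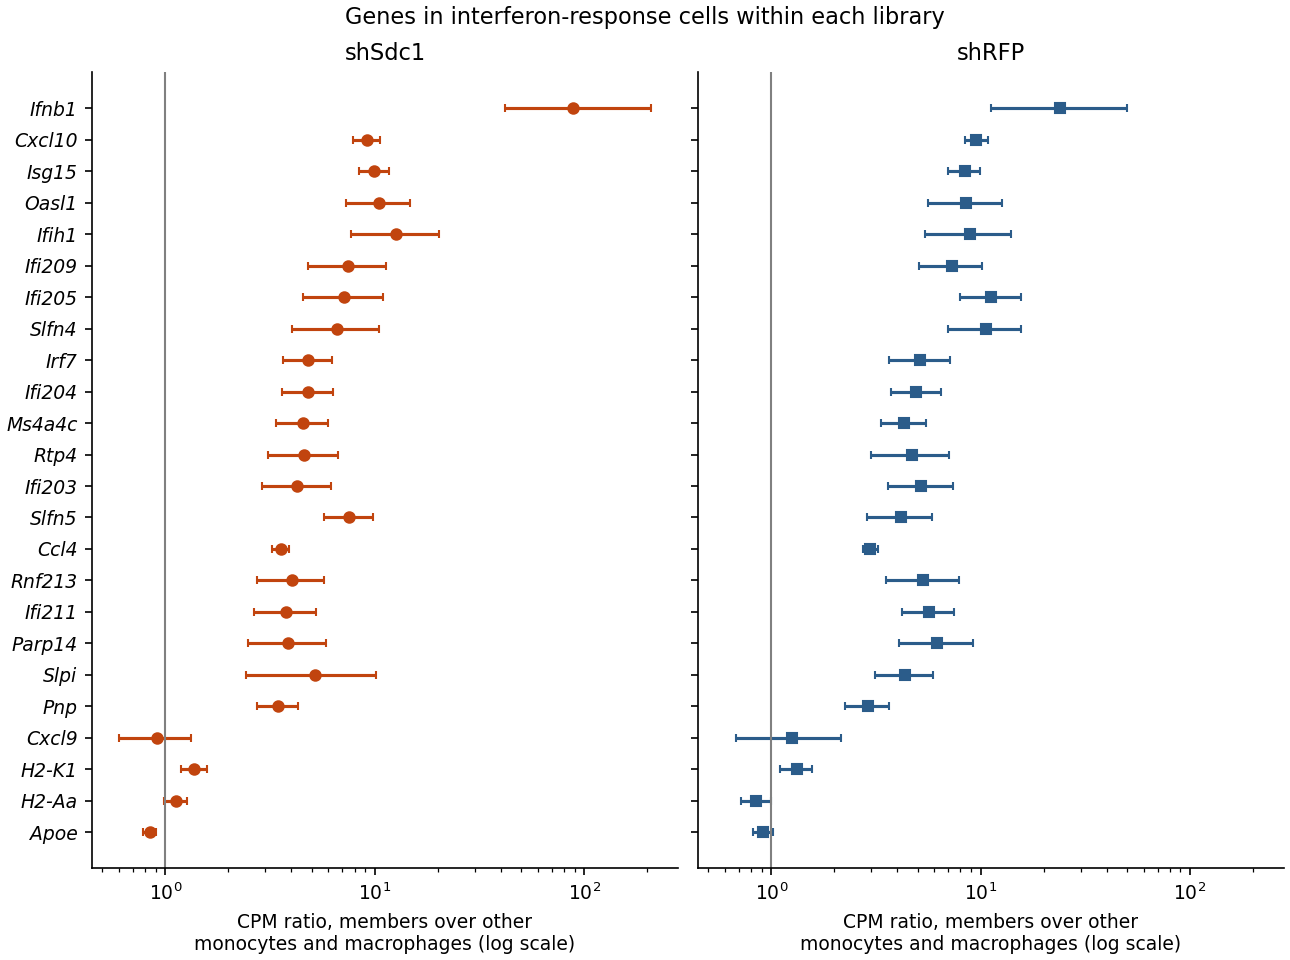
CPM in interferon-response cells (members) over CPM in other monocytes and macrophages of the same library (log axis), shSdc1 on the left and shRFP on the right, with exact 95% intervals for counting error. The 20 named genes lie above 2-fold in both libraries, while Cxcl9, H2-K1, H2-Aa and Apoe lie between 0.840- and 1.37-fold. Of the 20, Slpi had 11 UMIs in 3 cells in shSdc1, and in shRFP its ratio fell to 1.23 under other settings.

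Chemokines split. Cxcl10 stood at 2768 CPM in interferon-response cells and 302 CPM in the others of shSdc1, and at 3722 and 390 CPM in shRFP, ratios of 9.15 and 9.55. Cxcl9, its neighbour on chromosome 5 that is known as an interferon gamma target, had 303 CPM in interferon-response cells and 334 CPM in the others of shSdc1, and 164 and 131 CPM in shRFP, ratios of 0.908 [0.599 to 1.32] and 1.26 [0.679 to 2.14]. Ccl4, which attracts monocytes and T cells, was 3.55-fold higher in shSdc1 and 2.98-fold in shRFP, and Ccl5, another such chemokine, 4.21- and 2.24-fold. Ccl4, Ccl5 and Cxcl10 were the 3 of 15 measured chemokines past 2-fold in both libraries. The shRFP value of Ccl5 rests on 11 UMIs, 45.5% of them in 1 cell; it was 1.87 with at least 500 genes per cell, short of 2-fold, and 3.40 after thinning. Interferon-inducible GTPases, which act against pathogens in vacuoles, summed over all 14 genes to 1406 CPM in interferon-response cells and 402 CPM in the others of shSdc1, and to 1198 and 269 CPM in shRFP. The 3 with at least 20 UMIs were those abundant in interferon-response cells. Gbp5 was 7.23-fold higher in shSdc1 and 11.8-fold in shRFP, Irgm1 4.05- and 8.55-fold, and Gbp2 1.88- and 3.70-fold.

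MHC class I genes as a list were higher than in the other monocytes and macrophages, mostly by less than 2-fold, and MHC class II genes were not. The class I list summed to 14393 CPM in interferon-response cells and 10540 CPM in the others of shSdc1, and to 10508 and 7729 CPM in shRFP. The median log2 ratio of 15 MHC class I pathway genes was 0.45 in shSdc1 and 0.45 in shRFP, with H2-Q6 alone past 2-fold in both. For 6 MHC class II genes it was -0.07 and -0.22, with 0 past 2-fold. B2m, the class I light chain, had 4639 CPM in interferon-response cells and 3458 CPM in the others of shSdc1, and 3287 and 2172 CPM in shRFP. Of the 10 inflammatory genes, 4 were at least 2-fold higher in both libraries. These were the cytokines Tnf (2.64- and 2.53-fold) and Il1a (2.07- and 2.19-fold), the receptor antagonist Il1rn (2.03- and 2.39-fold) and the NF-kB inhibitor Tnfaip3 (2.30- and 2.14-fold). Tnf was 1.98-fold higher in shSdc1 after thinning. None of the 16 measured macrophage markers passed 2-fold in both libraries, and their medians were -0.28 in shSdc1 and -0.34 in shRFP.

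**Figure D3:**
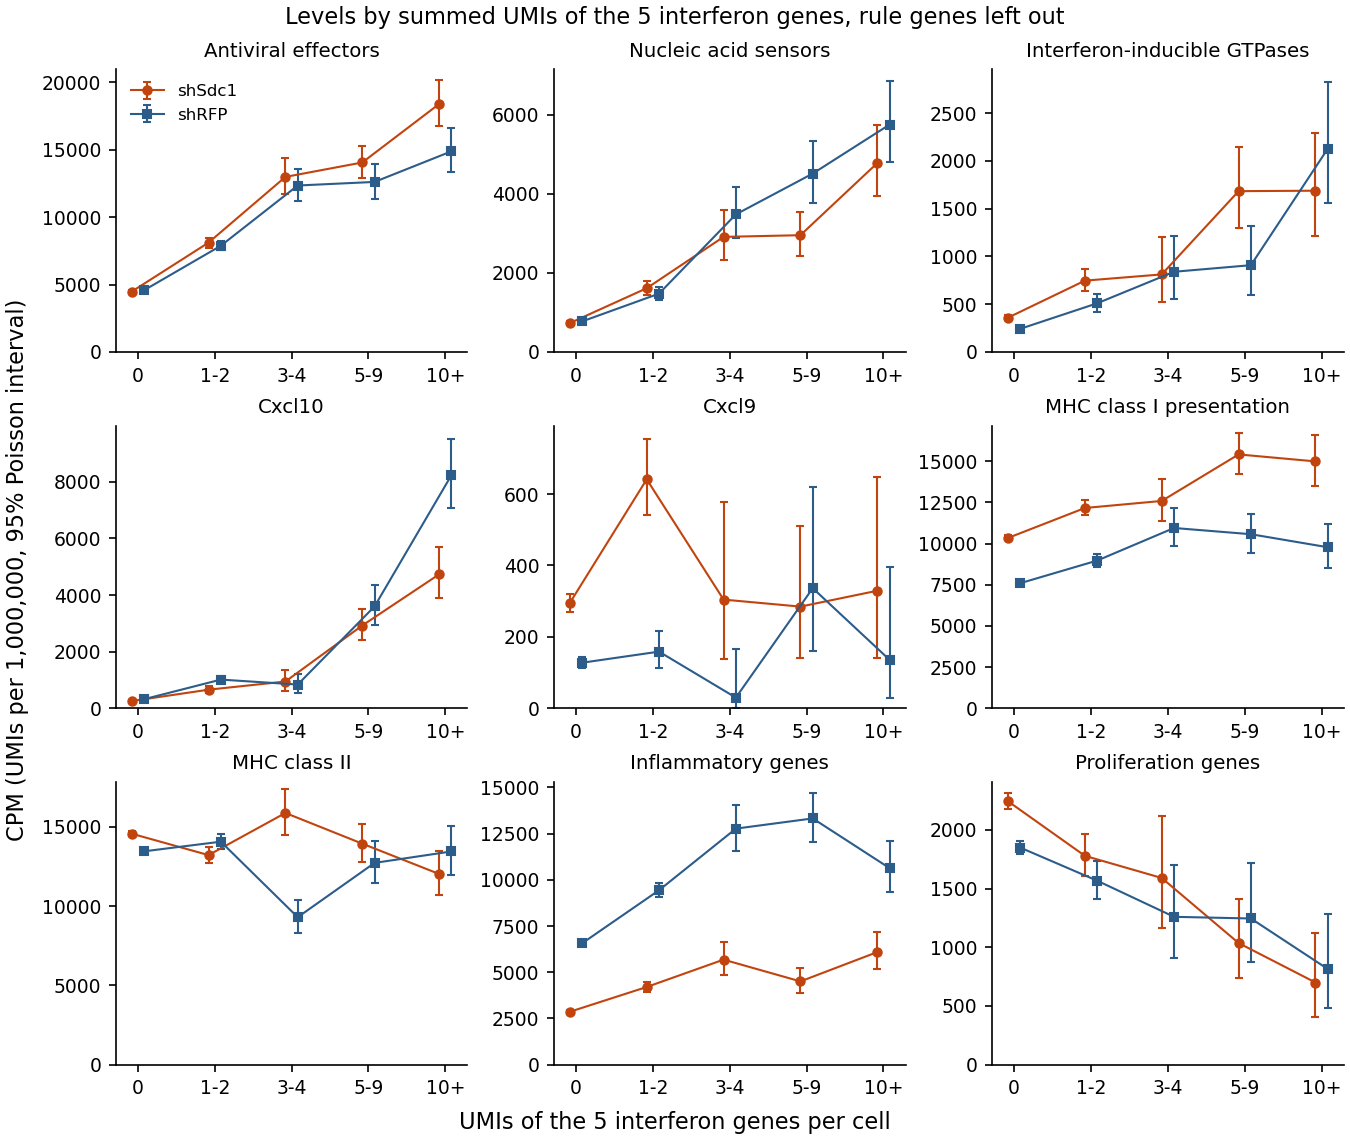
CPM of gene groups and of Cxcl10 and Cxcl9 in cells binned by their UMIs of the 5 interferon genes, for shSdc1 (circles) and shRFP (squares), with exact 95% Poisson intervals. The 5 genes of the rule are in no panel; antiviral effectors increase over the bins in both libraries, Cxcl10 is highest in the top bin, Cxcl9 and MHC class II follow no order, and proliferation genes decline.

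Levels graded with the interferon UMIs. Antiviral effectors, the 5 rule genes left out, stood at 4480 CPM in cells with 0 interferon UMIs, 8116 with 1 or 2, 12990.1 with 3 or 4, 14060.1 with 5 to 9 and 18399.6 CPM with 10 or more in shSdc1. The same bins had 4578, 7884, 12352, 12618 and 14888 CPM in shRFP. Cxcl10 was at 258, 659, 947, 2926 and 4734 CPM in shSdc1 and at 322, 1015, 839, 3600 and 8236 CPM in shRFP. The top bin holds 22 cells in shSdc1 and 21 in shRFP, and 1 shRFP cell held 10.7% of the Cxcl10 UMIs of all shRFP interferon-response cells. Cxcl9 followed no such order, at 295, 641, 304, 285 and 329 CPM in shSdc1 and 128, 159, 30.0, 336 and 136 CPM in shRFP. Proliferation genes were 2243 CPM in the lowest bin and 700 CPM [408 to 1120] in the highest in shSdc1, and 1848 and 815 CPM [483 to 1287] in shRFP. Median UMIs per cell were 706 in the lowest bin and 1097.5 in the highest in shSdc1, and 765 and 1070 in shRFP, and the part of depth in the gradient was not tested.

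Ifnb1, the gene of interferon beta, stood out most among genes outside the rule. It had 36 UMIs in the shSdc1 interferon-response cells, 389 CPM, against 9 UMIs or 4.39 CPM in the other monocytes and macrophages (88.7-fold). In shRFP it had 15 UMIs, 176 CPM, against 18 UMIs or 7.36 CPM (23.9-fold). With other thresholds or filters these ratios lay between 37.8 and 194 in shSdc1 and between 13.1 and 47.3 in shRFP. Interferon-response cells held 2.16% of all kept UMIs in shSdc1 but 72.0% of those of Ifnb1, and 2.07% but 40.5% in shRFP.

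Few cells carried this signal. Ifnb1 was seen in 9 of the 95 cells in shSdc1, with 11, 8, 7, 2, 2, 2, 2, 1 and 1 UMIs, and in 4 of the 83 in shRFP, with 7, 4, 3 and 1. The ratio between the libraries in interferon-response cells, 2.21 [1.18 to 4.35], therefore rests on 13 cells. It was 1.41 when 5 interferon UMIs were required and 3.46 after thinning. In the other monocytes and macrophages the ratio was below 1, at 0.597 [0.236 to 1.40] from 9 and 18 UMIs. Whether the cell sets differ was not tested. Kept cells with Ifnb1 numbered 17 in shSdc1, with 50 UMIs, and 23 in shRFP, with 37 UMIs. Outside the interferon-response cells these were 5 other monocytes and macrophages and 3 further cells in shSdc1, and 15 and 4 in shRFP. The most in 1 such cell was 5 UMIs in shSdc1 and 2 in shRFP. No other type I or type III interferon gene listed (Ifna1, Ifna2, Ifna4, Ifna5, Ifnk, Ifnl2 and Ifnl3) had a UMI in any kept cell. Ifng had 262 UMIs in shSdc1 and 160 in shRFP, none of them in an interferon-response cell. T cells, which the rule leaves out, held 140 and 101 of these, and the other monocytes and macrophages 16 and 3. That absence is therefore largely set by the rule and by low counts.

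The 13 carriers were set against the other 165 interferon-response cells after the values were seen, so what follows only describes them. Antiviral effectors outside the rule stood at 7720 CPM [6051 to 9707] in carriers and 15671 CPM [14831 to 16546] in the rest of shSdc1, and at 5823 CPM [4179 to 7900] and 13759 CPM [12949 to 14607] in shRFP, lower in carriers of both libraries. The rule genes had no such order, at 10046 CPM in carriers and 7890 CPM in the rest of shSdc1, and at 4119 and 6937 CPM in shRFP. Sensors had 1692 CPM in carriers and 3614 CPM in the rest of shSdc1, and 1136 and 4723 CPM in shRFP. Ccl4 was higher in the carriers of shSdc1, at 16921 CPM [14400 to 19755] against 4433 CPM [3991 to 4910], but near level in shRFP, at 7953 and 7897 CPM. Il1b had 1 UMI in all carriers together and 368 in the rest. The carriers had a median of 893 UMIs in shSdc1 and 1672.5 in shRFP, against 888.5 and 930 in the rest.

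Between the groups, interferon-response cells of shSdc1 tumors carried more macrophage and fewer inflammatory transcripts than those of shRFP tumors. Antiviral effectors were close by their list median, while 4 of 9 nucleic acid sensors were lower and 0 higher. Of the 1446 genes, 225 (15.6%) were at least 1.5-fold higher in shSdc1 and 231 (16%) lower. The median log2 ratio was 0.01. TMM scaling, which moves every log2 ratio by -0.06, gave 192 higher and 270 lower, and median-of-ratios scaling, which moves them by 0.12, gave 285 and 191. The lists below are read against these shares.

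Antiviral effectors had a median log2 ratio of 0.15, shSdc1 over shRFP, with 1 of 22 higher and 2 lower, fewer than the background shares; after thinning the median was -0.03. Slfn5 was the higher one, at 822 CPM in shSdc1 and 446 CPM in shRFP (1.84 [1.23 to 2.80]), and 1.28 with 2 interferon UMIs required. Slfn1 (0.542) and Slfn4 (0.640) were lower. Isg15 had a ratio of 1.15 [0.932 to 1.42], Irf7 1.42 [0.960 to 2.13], up to 1.78 under other settings, and Oasl1 1.37 [0.862 to 2.20]. None of 10 signalling genes passed 1.5-fold in either direction. Of the 3 measured GTPases, Gbp2 was lower, at 162 CPM in shSdc1 and 258 CPM in shRFP (0.628 [0.303 to 1.27]).

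Cxcl10 was at 2768 CPM in shSdc1 and 3722 CPM in shRFP, a ratio of 0.744 [0.628 to 0.880] that fell short of 1.5-fold. It passed that fold after thinning, at 0.592, and with 5 interferon UMIs required, at 0.650. Cxcl9 had 28 UMIs in shSdc1 and 14 in shRFP, a ratio of 1.84 [0.938 to 3.79] that reached 3.39 with 2 interferon UMIs required and 1.18 with at least 500 genes per cell. Of 9 sensors 0 were higher and 4 lower. Dhx58 had 64.9 CPM in shSdc1 and 235 CPM in shRFP (0.276 [0.0908 to 0.713]) and Ifi205 had 314 and 611 CPM (0.514 [0.314 to 0.824]; 0.700 with C1q-rich and C1q-low cells weighted alike). Ifi209 and Ifi211 were at 0.649 and 0.656. In the other monocytes and macrophages Dhx58 had a ratio of 1.40 and Ifi205 of 0.807; whether the cell sets differ was not tested.

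Macrophage markers were higher in 9 of 16 measured genes and lower in none, with a median log2 ratio of 0.73 in interferon-response cells and 0.68 in the other monocytes and macrophages. Apoe, the lipid carrier of mature macrophages, had 9311 CPM in shSdc1 and 4086 CPM in shRFP, a ratio of 2.28 [2.01 to 2.59]. Ms4a7 had 995 and 211 CPM (4.71 [2.82 to 8.29]), Selenop, a selenium transport protein, 692 and 270.0 CPM (2.56 [1.57 to 4.33]), and Gpnmb, a lysosomal glycoprotein, 411 and 153 CPM (2.69 [1.40 to 5.51]). Ccl8, a chemokine of resident-like macrophages, had 1373 CPM in shSdc1 and 93.9 CPM in shRFP. Its ratio of 14.6 [7.20 to 34.6] rests on 127 and 8 UMIs, of which a single cell held 15.7% in shSdc1 and 50% in shRFP, and other settings gave 7.31 to 28.3. Outside the lists, Aif1, the gene of IBA1, had a ratio of 3.54 [2.11 to 6.21] and Grn, a lysosomal progranulin, of 1.89 [1.46 to 2.47]. Ccl5 had 443 CPM in shSdc1 and 129 CPM in shRFP (3.43 [1.73 to 7.41]). Other settings gave 2.06 to 5.06 for Ccl5, the highest without its top cells, and 2.83 to 5.11 for Ms4a7, the lowest after thinning.

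Inflammatory genes went the other way, with 8 of 10 lower and 0 higher, and a median log2 ratio of -1.17 in interferon-response cells and -0.89 in the others. Il1b, the pyrogenic cytokine, had 908 CPM in shSdc1 and 3346 CPM in shRFP, a ratio of 0.271 [0.210 to 0.347]. Ptgs2, the prostaglandin synthase COX-2, had 314 and 1303 CPM (0.241 [0.154 to 0.365]), and Clec4e, the lectin receptor Mincle, 216 and 693 CPM (0.312 [0.178 to 0.526]). Other settings gave 0.123 to 0.368 for Ptgs2 and 0.119 to 0.524 for Clec4e, both lowest when at least 5 Lyz2 and C1q UMIs were required. Tnf had 703 CPM in shSdc1 and 1221 CPM in shRFP (0.576 [0.416 to 0.792]) and Nfkbia 1179 and 2736 CPM (0.431 [0.340 to 0.543]). Genes known to be induced by tissue dissociation were lower too, with 8 of 17 lower and 0 higher, and the neutrophil list had 5 UMIs in shSdc1 and 25 in shRFP. Their part in these values was not tested.

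Of 15 measured chemokines, 3 were higher in shSdc1, Ccl5, Ccl8 and Cxcl9, and 6 lower, Ccl2, Ccl3, Ccl6, Ccl7, Cxcl2 and Cxcl3. Cxcl2, a CXCR2 ligand for neutrophils, had 4142 CPM in shSdc1 and 9005 CPM in shRFP (0.460 [0.406 to 0.521]; 0.709 after thinning). Ccl2, the CCR2 ligand for monocytes, had 2282 and 4696 CPM (0.486 [0.409 to 0.575]). Inhba, the activin A subunit, had a ratio of 0.230 [0.107 to 0.453], or 0.467 with 2 interferon UMIs required. The protease inhibitor Slpi had 0.216 [0.101 to 0.422], and 0.122 to 0.641 under other settings; 1 cell held 54.5% of its shSdc1 UMIs. The lipopolysaccharide co-receptor Cd14 had 0.455 [0.346 to 0.595], or 0.743 after thinning, and the lectin Clec4n 0.355 [0.207 to 0.591]. The other monocytes and macrophages had ratios between 0.180 and 0.666 for these genes and for Il1b, Ptgs2, Clec4e and Nfkbia.

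**Figure D4:**
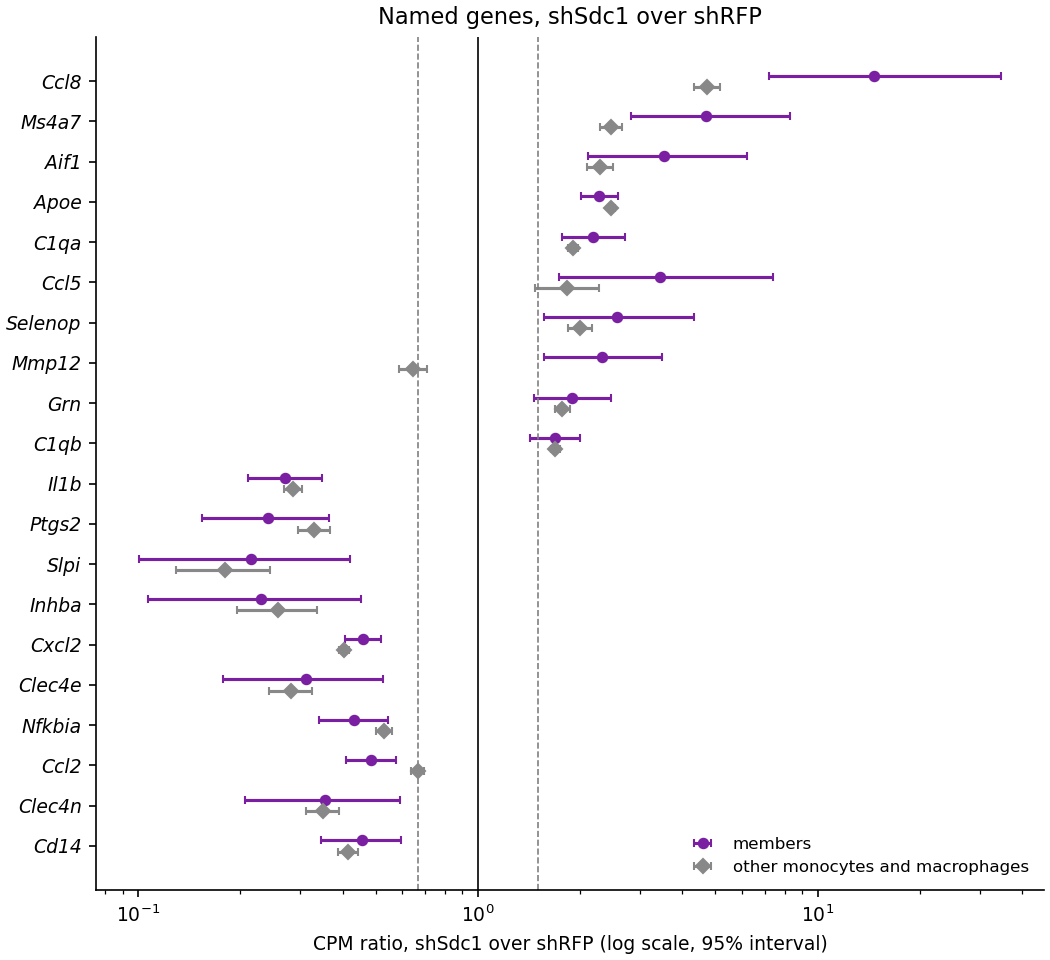
CPM ratio, shSdc1 over shRFP (log axis, exact 95% intervals for counting error), of the 20 genes named by rule, in interferon-response cells (members, circles) and in other monocytes and macrophages (diamonds). Dashed lines mark 1.5-fold either way. Of the 20 genes, 19 lie on the same side of 1 in both cell sets, and Mmp12 does not. The genes were picked by their ratio in interferon-response cells, and C1qa and C1qb also helped to choose the cells. The share of all 1446 measured genes with the same direction in both cell sets was not counted.

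MHC class I genes were higher in 5 of 15 and lower in 0, with a median log2 ratio of 0.41 in interferon-response cells and 0.41 in the others. The 5 were the peptide transporter subunit Tap1 (1.97 [1.02 to 4.03]), the immunoproteasome genes Psmb9 (2.30 [1.15 to 4.94]) and Psme1 (1.62 [0.925 to 2.92]), H2-Q4 and H2-Q6; H2-Q genes are close copies of each other. B2m had a ratio of 1.41 [1.21 to 1.65] and H2-K1 1.46 [1.17 to 1.82]. MHC class II genes were higher in 2 of 6, H2-Aa at 1.55 [1.27 to 1.91] and H2-DMa at 1.54 [0.828 to 2.92], with a median of 0.39, or -0.02 after thinning. Monocyte markers had a median of -0.27 in interferon-response cells and -1.32 in the others. Chil3 was the 1 of 6 past 1.5-fold, with 3 UMIs in shSdc1 and 27 in shRFP and a ratio of 0.102 (0.046 to 0.436 under other settings), and the median was positive, at 0.01 to 0.25, with 5 interferon or 5 myeloid UMIs required, after thinning and with C1q weighting.

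C1q genes, which are part of the rule, also separate monocytes from macrophages, and the cells were split by them as a description. Cells with at least 3 UMIs of C1qa, C1qb and C1qc, called C1q-rich here, were 72.6% [62.5 to 81.3] of the interferon-response cells in shSdc1 and 44.6% [33.7 to 55.9] in shRFP, a ratio of 1.63 [1.08 to 2.50]. Among the other monocytes and macrophages they were 74.0% and 43.6% (1.70 [1.58 to 1.83]). C1q-rich is a range, not a type: 11 interferon-response cells in shSdc1 and 12 in shRFP had 1 or 2 C1q UMIs, and 14 and 7 had 3 or 4. Interferon-response cells were 3.79% of C1q-rich cells in shSdc1 and 3.06% in shRFP (ratio 1.24 [0.820 to 1.90]), and 4.06% and 2.94% of C1q-low cells (1.38 [0.820 to 2.28]). Depth differed with the split, at a median of 979 UMIs in C1q-rich and 752.5 in C1q-low interferon-response cells of shSdc1, and 1214 and 747 in shRFP.

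Both kinds of cell carried the interferon genes. Antiviral effectors stood at 14037 CPM in shSdc1 and 10721 CPM in shRFP in C1q-rich interferon-response cells, and at 17924 and 15697 CPM in C1q-low ones, against 3791 to 6165 CPM in the other monocytes and macrophages of either kind. Il1b was lower in shSdc1 within each kind, at 644 CPM [473 to 857] in shSdc1 and 1869 CPM [1489 to 2317] in shRFP in C1q-rich cells, and at 1895 CPM [1334 to 2612] and 4954 CPM [4295 to 5687] in C1q-low cells. Macrophage markers were at 22399 CPM in shSdc1 and 12905 CPM in shRFP in C1q-rich cells, and at 5940 and 5617 CPM in C1q-low cells. Cxcl10 was 2659 CPM in shSdc1 and 3604 CPM in shRFP in C1q-rich cells and 3175 and 3851 CPM in C1q-low cells. With the kinds weighted alike in both libraries, the ratio shSdc1 over shRFP was 1.70 for Apoe, 1.47 for C1qa and 1.17 for C1qb. Their unweighted ratios were 2.28, 2.18 and 1.69. The kinds are cut on C1q UMIs, so the weighting lowers the C1qa and C1qb ratios by construction. It cannot check the calls of these 2 genes at 1.5-fold.

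**Figure D5:**
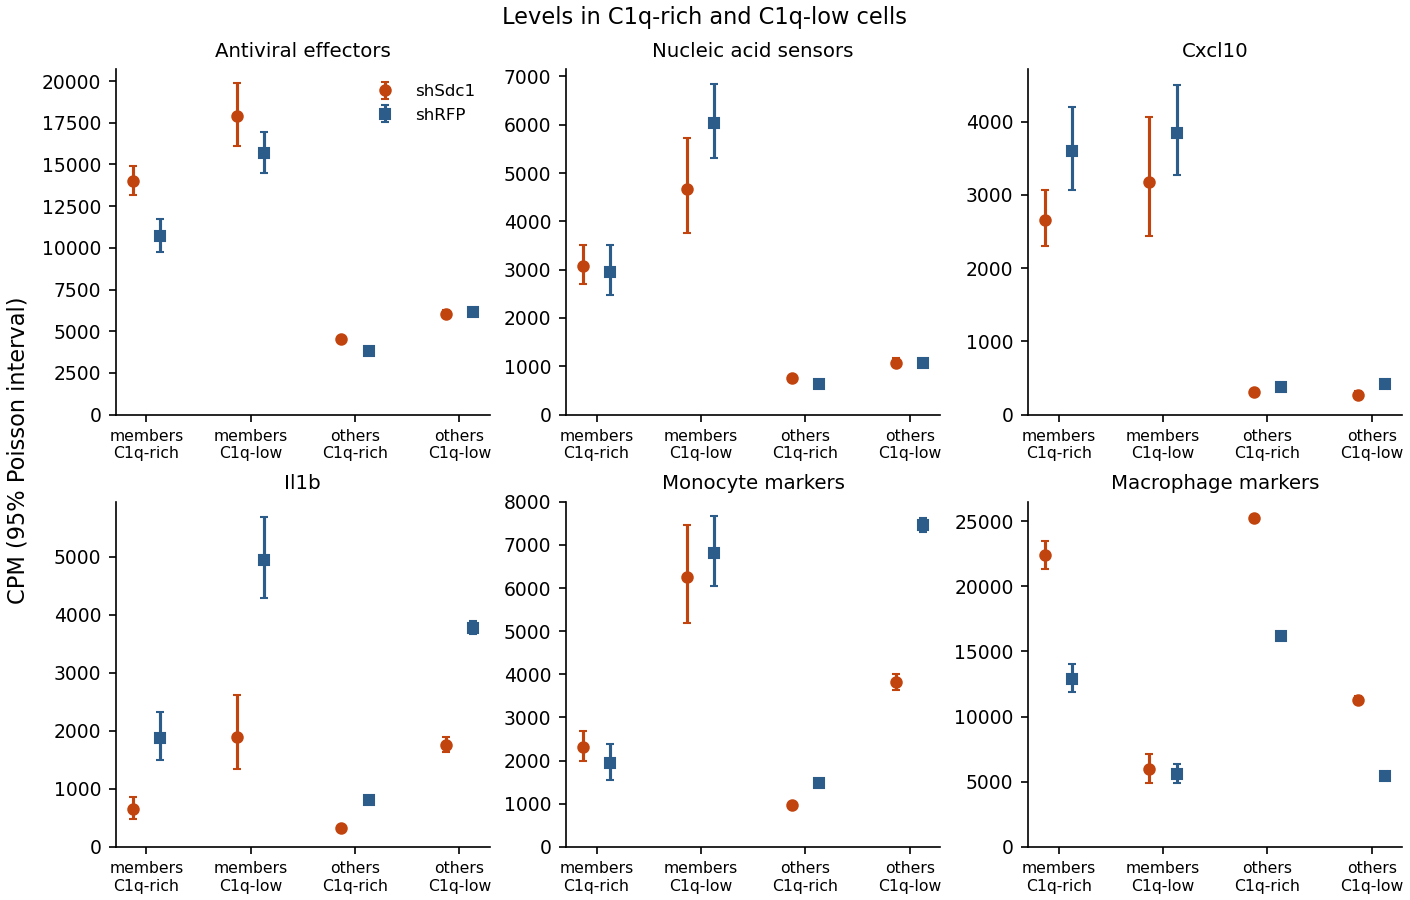
CPM (exact 95% Poisson intervals) of gene lists, Cxcl10 and Il1b in C1q-rich and C1q-low interferon-response cells (members) and in the other monocytes and macrophages (others), for shSdc1 (circles) and shRFP (squares). Antiviral effectors, sensors and Cxcl10 are higher in interferon-response cells of both kinds, and Il1b is lower in shSdc1 in all 4 cell sets.

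Across the 5241 monocytes and macrophages of both libraries, the genes whose log-scaled counts went most with the summed interferon genes were Isg15 (Pearson r of 0.381), Cxcl10 (0.290), Ifit3b (0.260), Oasl1 (0.251) and Ifi205 (0.231). The counts are sparse, the cells share libraries and depth, and these correlations only rank the genes.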

How the data were processed

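The authors deposited raw UMI counts for each gene and cell barcode, 1 library per group. Per the file headers these come from Cell Ranger 6.1.1, and per the submitters' processing notes the genome was mm10. The gene annotation, not given in the sources used here, was left as deposited. Of 5902 barcodes in shSdc1 and 5786 in shRFP, those with at least 200 genes and under 10% mitochondrial UMIs were kept, 5576 with 4281577 UMIs and 5225 with 4116399 UMIs. UMIs were summed over cells and scaled to CPM. Ratios have exact conditional binomial intervals, levels exact Poisson intervals and shares Clopper-Pearson intervals, all at 95% and for counting error only. With 1 library per group no test was made.

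Genes with at least 20 UMIs in interferon-response cells of both libraries together count as measured. A gene is called at 1.5-fold between libraries, and at 2-fold in both libraries between cell sets. Genes of the lists could be named. Further names came from a rule: with at least 50 UMIs and past those folds, the 10 highest and 10 lowest ratios of shSdc1 over shRFP by the interval bound nearest to 1, and the 20 genes with the highest lower bounds over the other monocytes and macrophages. Mitochondrial, ribosomal, hemoglobin, immunoglobulin, T cell receptor, Xist, Y-linked and unnamed genes were left out of that ranking; no gene met the rule for the lowest ones over the other monocytes and macrophages. Near-identical genes may share reads. The cells and lists were chosen with earlier results of these data known. Mx1, Mx2, Mnda and Cxcl11 had no match, and Cgas, Sting1 and Calhm6 were matched from older symbols.

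Doublets were kept: Scrublet's automatic threshold marked 0 and 1 barcodes, too few for it to have worked, and removal of the 263 and 242 highest scores was an alternative. The ratio intervals and 1.5-fold calls were checked on Poisson counts simulated per gene with known folds. These counts lack the clustering of UMIs in cells, so the check cannot show how the intervals hold for clustered UMIs. Gene positions came from GENCODE M21. Python 3.11.15, NumPy 2.4.6, SciPy 1.17.1, pandas 2.3.3, scanpy 1.11.5, Matplotlib 3.10.9, R 4.3.3 and edgeR 4.0.16 (TMM factors only) were used.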

Additional observations from a re-analysis of the deposited data

Results flagged for a closer look

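The search for opposite directions in the cell sets covered only the genes named for their ratio of shSdc1 over shRFP. Mmp12, the macrophage elastase, had opposite directions. In interferon-response cells its ratio, shSdc1 over shRFP, was 2.32 [1.57 to 3.49], at 1006 CPM in shSdc1 and 434 CPM in shRFP. In the other monocytes and macrophages it was 0.645, at 348 CPM in shSdc1 and 540 CPM in shRFP. The difference between the cell sets was not tested. Mmp12 had UMIs in 19 of the 95 shSdc1 cells and 15 of the 83 shRFP cells, and the cell with the most held 19.4% of them in shSdc1 and 21.6% in shRFP. The ratio in interferon-response cells was 2.37 without those cells and 1.63 to 4.12 over all settings tried.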

How the results depend on the processing

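Thresholds of 2 and 5 interferon UMIs, 5 myeloid UMIs and 500 genes per cell were tried, with doublet removal and thinning to 500 UMIs. So were TMM and median-of-ratios scaling, other UMI minimums for lists, leaving out the top cell of each gene and equal weighting by C1q. Of 910 recomputed values, 835 stayed within a set range, 75 left it and none of the called values changed sign. For ratios and shares the range was the counting interval. For counts of genes it was 1.5-fold either way. For list medians it ran from the median lower bound to the median upper bound of the genes, which is not an interval of the median. Thinning, which leaves fewer UMIs to measure genes with, gave 59 genes higher and 91 lower in shSdc1 and 43 genes higher in interferon-response cells than in the others. The share of monocytes and macrophages had ratios of shSdc1 over shRFP from 1.22 to 1.48, and the share of kept cells from 1.01 to 1.19. Inflammatory list medians stayed between -1.58 and -0.96, macrophage between 0.46 and 1.41 and MHC class I between 0.35 and 0.56. Arg1, 1.63 as counted, ranged from 1.04 to 3.77 and Spp1, 0.550 as counted, reached 0.774. At this depth a gene with under 20 UMIs was not measured. No paired analysis was possible because each group is 1 library.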

Other observations

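Ifit3 is part of the rule, which holds the other monocytes and macrophages to at most 2 UMIs of its 5 genes, so its values there are a description. The other monocytes and macrophages had 61 Ifit3 UMIs in shSdc1 and 20 in shRFP, a ratio of 3.64 [2.17 to 6.37], and Ifit3b, its close copy, 17 and 7 UMIs (2.90 [1.14 to 8.27]). Rsad2, Ifit1, Ifit2 and Cmpk2 had ratios between 0.838 and 1.19 there. Ifit3 was seen in 2.28% of these cells in shSdc1 and 0.742% in shRFP, and in 0.794% and 1.06% of T cells.

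Genes of the hypoxia list, a response to low oxygen, had a median log2 ratio of -0.28 in interferon-response cells, with 0 of 9 higher and 1 lower in shSdc1. The 1 was Hilpda, a lipid droplet gene, at 552 CPM in shSdc1 and 939 CPM in shRFP. Immediate-early and heat shock genes, which tissue dissociation is known to induce, had 0 of 17 higher and 8 lower, with a median of -0.50 in interferon-response cells and -0.66 in the other monocytes and macrophages. Hspa1a had 746 CPM in shSdc1 and 1444 CPM in shRFP, and Ier3 757 and 1456 CPM. Among genes of suppressive myeloid cells and matrix, Arg1, which consumes arginine, had 822 CPM in shSdc1 and 505 CPM in shRFP, and Spp1, osteopontin, 2812 and 5107 CPM.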
